A study of Mus musculus with 5 samples.

Results

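The immunoglobulin constant and B cell receptor genes examined here were chosen by symbol, and all 9 were present among the 47729 genes of the count table. They are *Ighm*, *Ighd* and *Igha* (constant regions of the heavy chains of IgM, IgD and IgA), *Igkc* and *Iglc1* (constant regions of the kappa and a lambda light chain), *Jchain*, *Cd79a*, *Cd79b* and *Pax5*. RNA of dermal group 2 innate lymphoid cells (dILC2s) was sequenced in 5 libraries, 3 from C57BL/6 wild-type (WT) pools of 10 mice and 2 from *Rag1*-/- pools of 9 mice, which lack the recombinase gene *Rag1*. By the methods of the study the mice were female and 8 to 13 weeks old, and by the labels the cells were taken fresh from the sort, without stimulation. In the flow cytometry methods dILC2s were gated as viable CD45+ CD90hi cells without CD2 or CD3, and the stain named there held no B cell marker. The RNA sequencing methods speak of sorted dermal ILC2s and give no gate of their own. The labels describe the cells of the *Rag1*-/- libraries as type 3 and those of the WT libraries as type 2 innate lymphoid cells, whereas the methods call both dILC2s. The comparison asked how dILC2s differ in their transcripts when RAG1 is lacking.

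A B cell receptor is a membrane immunoglobulin of paired heavy and light chains that is bound to the signalling chains Igα (*Cd79a*) and Igβ (*Cd79b*). The variable part of each chain is assembled from gene segments by the RAG1 and RAG2 recombinase, so that mice without RAG1 make no mature B or T cells. Transcripts of an unrearranged heavy chain locus, called germline or sterile transcripts, can start upstream of a constant region without any rearrangement and occur outside the B lineage, so a count on a constant region alone does not show a rearranged chain.

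WT pools 5, 6 and 13 had totals of 38796193, 39477243 and 32939428 counts, and *Rag1*-/- pools 2 and 7 of 8050562 and 38922750. In CPM (counts scaled to a library of 1e6) a floor of 3 counts corresponded to 0.0760 to 0.0911 in WT, 0.373 CPM in *Rag1*-/- pool 2 and 0.0771 CPM in *Rag1*-/- pool 7. Intervals and floors given here cover counting error only. *Rag1* itself was counted 4, 0 and 5 times in WT pools 5, 6 and 13 and 5 and 48 times in *Rag1*-/- pools 2 and 7, so its transcript was not lower where the label says the gene is disrupted (log2 fold change 3.53, SE, standard error, 1.03, adjusted p = 0.0866, edgeR), and the groups are those of the labels. All 12 ILC2 marker genes of the list used here had counts in every library, with summed levels of 1253 to 2354 CPM in WT and 3867 to 5885 CPM in *Rag1*-/-. Keratinocyte markers, 12 genes as well, summed to more in every library, 28130 to 39610 CPM in WT and 7149 to 16240 CPM in *Rag1*-/-. Genes of a list expressed by leukocytes in general summed to 1674 to 3864 CPM in WT and 10430 to 11970 CPM in *Rag1*-/-, and were lowest among the WT pools in pool 5 for 37 of 38 genes.

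Of the 9 genes, 7 passed the filter on low counts and none was called, where a call needs an adjusted p-value below 0.05 and a log2 fold change beyond 1 in either direction (edgeR's quasi-likelihood test, in which 5.73% of 19011 genes were called, 3.57% higher and 2.16% lower in *Rag1*-/-). With an unadjusted p-value under 0.05 there were 3, *Igha*, *Cd79b* and *Pax5*, where 26.4% of all genes tested had one. Among the 7 tested, the same 3 had *Rag1*-/- libraries that did not overlap the WT libraries. Of all genes tested 45.9% did not overlap (21.9% above and 24.0% below WT). *Igkc*, which was not tested, was also below WT in both *Rag1*-/- libraries, at counts under the floor. *Igha* and *Cd79b* were higher in *Rag1*-/- when scaled by TMM (edgeR's trimmed mean of M-values) but had negative fold changes when scaled on leukocyte genes, signs that rested on WT pool 5 (0.016 and 0.84 on that scale without it). *Pax5* was lower on both scales. On the leukocyte scale the median gene was shifted by -2.06 and 66.4% of genes tested were called lower. The lower value of *Pax5* there thus adds no separate support. With TMM the median log2 fold change of the 7 genes was -0.35, against 0.02 over all genes tested. DESeq2, the tool used in the study, called *Pax5* alone among the 9 (7.16% of its genes were called lower), and 3 of them had an unadjusted p-value under 0.05 in that test.

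**Figure D1:**
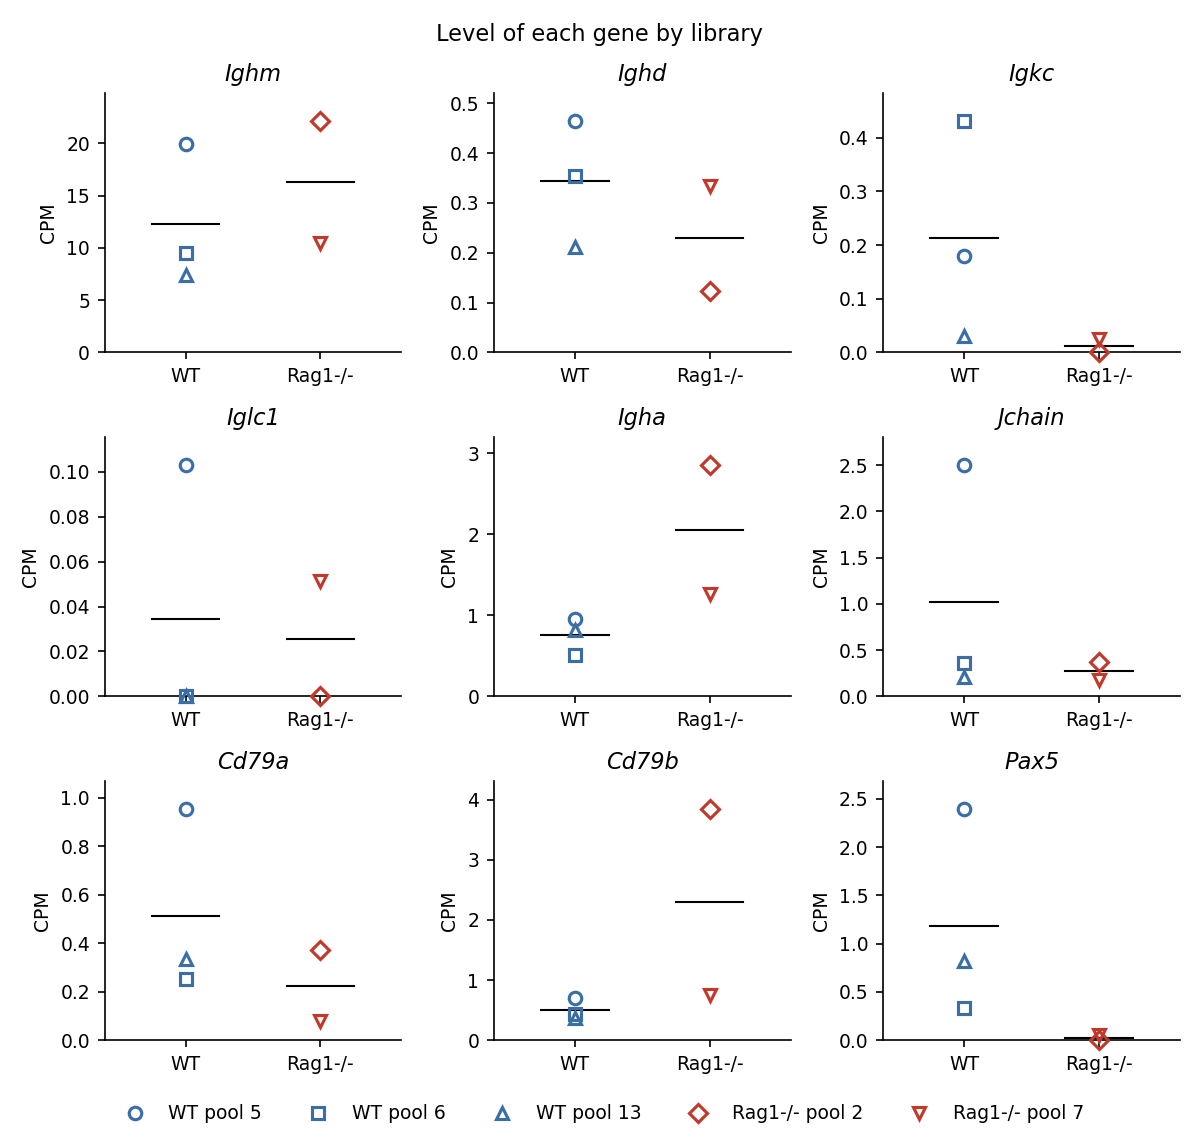
Level of the 9 genes in each library, in CPM on linear axes that start at 0 and differ between panels. Each symbol is 1 library and each line the mean of a genotype, and *Ighm*, at 7.41 to 22.1 CPM, lies above the other genes, which stay at or under 3.85 CPM.

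Heavy chain constant regions were examined first. *Ighm* (chr12:113418558-113422730, minus strand, GRCm38) encodes the constant region of IgM, the first isotype a B cell makes. It was counted 774, 376 and 244 times in WT pools 5, 6 and 13 and 178 and 407 times in *Rag1*-/- pools 2 and 7. As levels these were 19.95, 9.52 and 7.41 CPM in WT and 22.1 and 10.5 CPM in *Rag1*-/-. The highest library of all was *Rag1*-/- pool 2, the highest WT library was pool 5, and the groups overlapped. The mean was 12.3 ± 6.71 CPM for WT (SD, n = 3) and 16.3 ± 8.24 CPM for *Rag1*-/- (SD, n = 2). The log2 fold change was 0.41 (SE 0.49, adjusted p = 0.651, edgeR) and became -0.16 without *Rag1*-/- pool 2. In pooled counts the ratio of WT to *Rag1*-/- was 1.01 (95% interval 0.913 to 1.11, exact conditional binomial). This ratio weights the libraries by depth, and its interval leaves out the spread between pools. *Ighm* made up 70.8% to 79.3% of the counts of the 9 genes in every library. Transcripts of *Ighm* were therefore present in both *Rag1*-/- libraries, at levels within the range of the WT libraries in pool 7 and above it in pool 2.

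*Ighd*, which lies next to *Ighm* (chr12:113406604-113416324, minus strand) and encodes the constant region of IgD, is spliced from the same primary transcript in mature naive B cells. Its counts were 18, 14 and 7 in WT pools 5, 6 and 13 and 1 and 13 in *Rag1*-/- pools 2 and 7. The count in *Rag1*-/- pool 2 was under the floor of that library. The groups overlapped, and the log2 fold change of -0.35 (SE 0.79, adjusted p = 0.828, edgeR) was smaller than its SE and became 0.02 without *Rag1*-/- pool 2.

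*Igha* (chr12:113254830-113260236, minus strand) encodes the constant region of IgA, the isotype of mucosal secretions. It was counted 37, 20 and 27 times in WT pools 5, 6 and 13 and 23 and 49 times in *Rag1*-/- pools 2 and 7. As levels these were 0.954, 0.507 and 0.820 CPM against 2.86 and 1.26 CPM. Both *Rag1*-/- libraries were above every WT library. The log2 fold change was 1.41 (SE 0.57, adjusted p = 0.169, edgeR). It did not pass, and it was -0.76 when the libraries were scaled on leukocyte genes, a scale on which the median gene was shifted by -2.06, and 0.016 on that scale without WT pool 5. Among the other heavy chain constant regions, *Ighg1* (IgG1) was the only gene with 10 or more counts, 2, 17 and 0 in WT and none in either *Rag1*-/- library. *Ighg2b* and *Ighg3* had 2 and 4 counts over all libraries, and *Ighg2c* and *Ighe* had none, which at the depths here allows up to 3 counts in a library.

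Light chain constant regions were near the floor. *Igkc* (chr6:70726435-70726966, plus strand), the only kappa constant region, was counted 7, 17 and 1 times in WT pools 5, 6 and 13 and 0 and 1 times in *Rag1*-/- pools 2 and 7. Pools 5 and 6 of WT were above the floor and the other 3 libraries were under it. It was removed by the filter, and the ratio of pooled WT to *Rag1*-/- counts was 10.6 (exact 95% interval 1.73 to 434). *Iglc1* (chr16:19061618-19062071, minus strand) had 4 counts in WT pool 5, 2 in *Rag1*-/- pool 7 and none elsewhere, and the lambda genes *Iglc2*, *Iglc3* and *Iglc4* had none. Per length of exon, *Ighm* had a mean level of 6.52 CPM per kb in WT and 8.63 CPM per kb in *Rag1*-/-, against 0.402 and 0.0242 CPM per kb for *Igkc*, so the IgM constant region was read far more often than the constant region of its usual partner chain. In WT, *Jchain* (0.406), *Igkc*, *Cd79a* (0.353), *Cd79b* (0.347) and *Igha* (0.285 CPM per kb) followed *Ighm*, and the libraries of these 5 genes overlapped. *Ighd*, *Pax5* and *Iglc1* were lowest in WT, at 0.181, 0.1335 and 0.0757 CPM per kb. In *Rag1*-/-, *Cd79b* followed *Ighm* at 1.61 CPM per kb, a mean of 2.69 in pool 2 and 0.521 in pool 7, and *Igha* came next at 0.771 CPM per kb, with libraries that overlapped those of *Cd79b*. For *Ighm*, *Cd79b*, *Igha*, *Ighd*, *Igkc* and *Iglc1*, no window of 50 bases, the read length, occurred in another annotated transcript, whereas 0.288% of the windows of *Jchain* and 8.31% of those of *Cd79a* did.

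Variable segments, which form the other end of each chain, were summed per library. Kappa segments (160 genes, 15 with a count) were counted 481, 85 and 30 times in WT pools 5, 6 and 13 and 0 and 6 times in *Rag1*-/- pools 2 and 7. Their level was 12.4 CPM in WT pool 5 (exact Poisson 95% interval 11.3 to 13.6), 2.15 and 0.911 CPM in pools 6 and 13, and 0.154 CPM in *Rag1*-/- pool 7. The 0 of pool 2 allows up to 0.373 CPM. Every WT library was thus above both *Rag1*-/- libraries, and the pooled ratio of 42.0 (exact interval 19.2 to 115) was 12.4 (5.54 to 34.6) without WT pool 5, which held 79.9% of all kappa segment counts. Heavy chain variable segments (185 genes) had 13, 18 and 8 counts in WT and 2 and 4 in *Rag1*-/-. As levels these were 0.335, 0.456 and 0.243 CPM against 0.248 and 0.103 CPM, so the groups overlapped. The count of *Rag1*-/- pool 2 was under its floor. Lambda segments (3 genes) had a single count in WT pool 6. The 20 heavy chain D segments had none and the 14 J segments 2 counts each in WT pools 6 and 13, but these segments are 10 to 100 bases long, and reads of 50 bases are poorly placed on them.

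The kappa signal came mostly from a pair of segments, which were singled out after their values were seen. *Igkv16-104* was counted 159, 37 and 13 times in WT pools 5, 6 and 13 and 0 and 3 times in *Rag1*-/- pools 2 and 7, and *Igkv18-36* had 179, 34 and 13 against 0 and 2. Together they held 440 of the 602 kappa counts (73.1%). Neither passed in the test (adjusted p = 0.0911 and 0.0863, edgeR), with fitted log2 fold changes of -4.79 (SE 1.43) and -5.42 (SE 1.58) that depend on the prior count, since *Rag1*-/- libraries were at or under the floor. In WT pool 5 the level of *Igkv16-104* was 10.8 and of *Igkv18-36* 13.4 CPM per kb, beside 10.6 for *Ighm* and 0.339 for *Igkc*, and the kappa segments had 68.7 counts for each count on *Igkc*. A rearranged kappa transcript joins a variable segment to the constant region, so that the ratio of their counts is of interest. It was 5 in WT pool 6. WT pool 13 had 30 kappa segment counts beside 1 count on *Igkc*, which is under the floor. Of the 6 other segments with at least 10 counts, *Igkv8-21*, *Igkv9-129*, *Igkv14-111*, *Igkv15-97* and *Igkv12-47* had no count in *Rag1*-/-, of which the last 2 are annotated as pseudogenes, and *Ighv5-16* had 15 counts, all in WT pool 6. The last 300 coding bases of each of the pair, from GENCODE M21 on GRCm38, are shown since the pair held 73.1% of the kappa counts. *Igkv16-104* lies at chr6:68425575-68426072 on the plus strand and *Igkv18-36* at chr6:69992465-69992977 on the minus strand. No window of 50 bases of either occurred in another annotated transcript. Capitals mark the last 10 bases, the end that joins a J segment in a rearranged gene.
Igkv16-104: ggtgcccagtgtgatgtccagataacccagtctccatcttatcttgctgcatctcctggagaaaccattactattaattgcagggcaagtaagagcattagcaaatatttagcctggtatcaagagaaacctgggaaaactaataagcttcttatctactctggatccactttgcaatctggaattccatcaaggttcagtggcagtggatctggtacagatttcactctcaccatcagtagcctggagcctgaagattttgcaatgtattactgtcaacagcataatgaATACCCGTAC
Igkv18-36: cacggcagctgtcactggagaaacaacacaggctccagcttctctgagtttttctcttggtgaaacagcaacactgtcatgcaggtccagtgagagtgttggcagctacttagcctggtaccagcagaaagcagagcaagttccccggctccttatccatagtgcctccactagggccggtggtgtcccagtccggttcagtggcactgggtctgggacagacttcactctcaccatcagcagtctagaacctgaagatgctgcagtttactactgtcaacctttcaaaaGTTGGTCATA

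**Figure D2:**
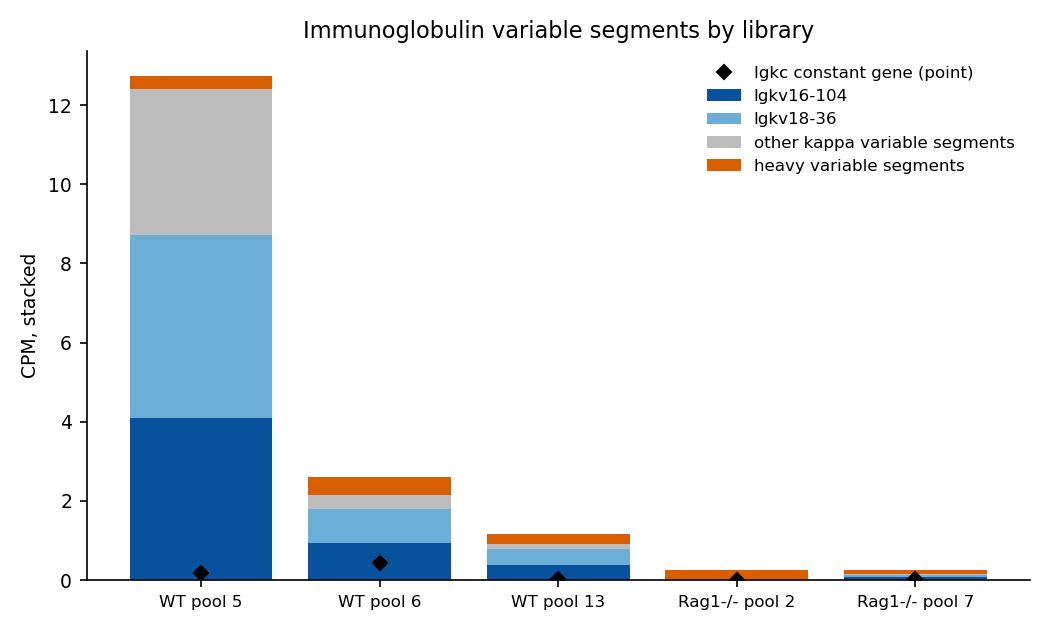
Variable segments in each library as stacked bars in CPM, split into *Igkv16-104*, *Igkv18-36*, other kappa segments and heavy chain segments, with *Igkc* as a point. The kappa segments reach 12.4 CPM in WT pool 5, 2.15 and 0.911 CPM in WT pools 6 and 13, and no more than 0.154 CPM in the *Rag1*-/- libraries.

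The joining chain *Jchain* (chr5:88519809-88527891, minus strand) links IgM and IgA into polymers and is made by antibody-secreting cells. It was counted 97, 14 and 7 times in WT pools 5, 6 and 13 and 3 and 7 times in *Rag1*-/- pools 2 and 7. As levels these were 2.50, 0.355 and 0.213 CPM in WT and 0.373 and 0.180 CPM in *Rag1*-/-. WT pool 5 stood far above the rest, 8.82 times the mean of the other WT pools, and the other 4 libraries overlapped. The log2 fold change of -2.02 (SE 1.27, adjusted p = 0.366, edgeR) was -0.20 without WT pool 5 (adjusted p = 0.938).

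*Cd79a* and *Cd79b* encode the partner chains that carry the signal of the receptor, and with TMM scaling they differed in sign. *Cd79a* (chr7:24897381-24902197, plus strand) was counted 37, 10 and 11 times in WT pools 5, 6 and 13 and 3 times in each *Rag1*-/- library. Its levels were 0.954, 0.253 and 0.334 CPM in WT and 0.373 and 0.0771 CPM in *Rag1*-/- and overlapped, with the shallow *Rag1*-/- pool 2 at its floor of 3 counts. The log2 fold change was -1.55 (SE 1.08, adjusted p = 0.416, edgeR), and -0.77 without WT pool 5. *Cd79b* (chr11:106311341-106314762, minus strand) was counted 27, 17 and 12 times in WT and 31 and 29 times in *Rag1*-/- pools 2 and 7, or 0.696, 0.431 and 0.364 CPM against 3.85 and 0.745 CPM. Both *Rag1*-/- libraries were above every WT library, pool 7 only slightly and pool 2 clearly. The log2 fold change of 2.14 (SE 0.76, adjusted p = 0.134, edgeR) did not pass. It was 0.65 without *Rag1*-/- pool 2 (adjusted p = 0.591), passed without *Rag1*-/- pool 7 (2.88, adjusted p = 0.0328, where 4.07% of genes were called higher) and without both the filter and WT pool 5 (2.33, adjusted p = 0.0213, where 3.01% were), and was -0.08 on the leukocyte scale and 0.84 on it without WT pool 5. The receptor holds both chains, and the pooled ratio of WT to *Rag1*-/- counts was 4.08 (exact interval 1.77 to 11.6) for *Cd79a* and 0.394 (0.269 to 0.577) for *Cd79b*. These intervals leave out the spread between pools, and with TMM and all libraries neither gene was called.

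*Pax5* (chr4:44524757-44710487, minus strand), the transcription factor that commits cells to the B lineage and keeps them there, was counted 93, 13 and 27 times in WT pools 5, 6 and 13 and 0 and 2 times in *Rag1*-/- pools 2 and 7. In WT the levels were 2.40, 0.329 and 0.820 CPM, and in *Rag1*-/- both libraries were under their floors of 0.373 and 0.0771 CPM. Every WT library was above the level of *Rag1*-/- pool 7, while WT pool 6, at 0.329 CPM, could not have been told from *Rag1*-/- pool 2 at its depth. The pooled ratio of WT to *Rag1*-/- was 28.1 (exact interval 7.62 to 234), and 12.97 (3.36 to 111) without WT pool 5. The fitted log2 fold change was -4.69 (SE 1.33, adjusted p = 0.0802, edgeR) and depends on the prior count. *Pax5* passed with DESeq2 (-4.86, adjusted p = 0.00832) and with edgeR without the filter (-4.73, adjusted p = 0.00333, where 4.98% of genes were called lower), but not without WT pool 5 (-3.65, adjusted p = 0.173, edgeR with the filter, and -3.70, adjusted p = 0.0781 without it). The gene shares 7.02% of its 50-base windows with the opposite-strand genes *5730488B01Rik* and *Gm12462*, and the library kit does not mark strand. Both of those genes had no count in any library.

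Promoter windows in the RefSeq table on GRCm38.p6, 250 bases before to 50 after the start, were given for 3 of the 9 genes, *Pax5*, *Jchain* and *Cd79a*, all lower in the mean of *Rag1*-/- than of WT, though none was called. They were searched on both strands for the octamer ATGCAAAT (in 1.75% of 32544 windows), the ETS motif AGGAAGT (9.27%) and the E-box CAGCTG (16.4%). The only match was AGGAAGT in the *Cd79a* window, 55 bases before the RefSeq start. The gene as counted starts earlier, at 24897381, so the match lies inside it. The *Cd79a* window (chr7:24897247-24897546, plus strand) is shown for that match, in capitals. That of *Pax5* (chr4:44710645-44710944, minus strand), the gene with the lowest *Rag1*-/- counts of the 3, has none in capitals. The *Pax5* window lies wholly upstream of the gene as counted, which begins at 44710487 on the minus strand.
Cd79a: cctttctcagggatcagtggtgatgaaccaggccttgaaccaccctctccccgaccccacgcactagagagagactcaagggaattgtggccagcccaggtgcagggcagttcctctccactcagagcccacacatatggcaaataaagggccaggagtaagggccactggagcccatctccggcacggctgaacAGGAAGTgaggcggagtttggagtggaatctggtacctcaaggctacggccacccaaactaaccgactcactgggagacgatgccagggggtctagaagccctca
Pax5: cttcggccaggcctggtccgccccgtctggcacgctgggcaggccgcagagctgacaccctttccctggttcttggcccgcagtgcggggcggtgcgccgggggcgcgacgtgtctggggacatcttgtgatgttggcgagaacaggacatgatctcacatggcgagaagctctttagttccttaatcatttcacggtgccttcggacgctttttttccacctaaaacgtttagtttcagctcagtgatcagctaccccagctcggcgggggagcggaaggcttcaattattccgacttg

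**Figure D3:**
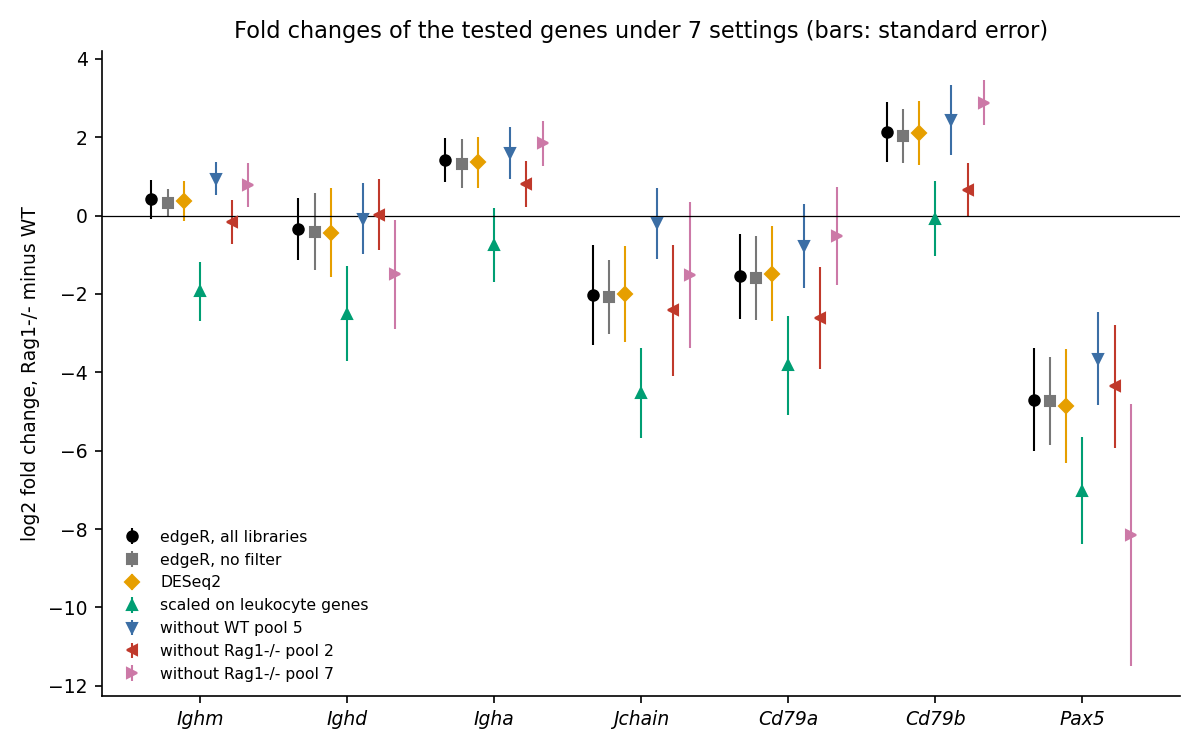
Log2 fold change (*Rag1*-/- minus WT) of the 7 genes tested under 7 settings, each point with a bar of 1 SE to either side. *Igha* and *Cd79b* lie above 0 in every setting drawn but the leukocyte scale (-0.76 and -0.08), *Ighm* lies below 0 on that scale (-1.93) and without *Rag1*-/- pool 2 (-0.16), and *Pax5* lies below 0 throughout.

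WT pool 5 was the highest of the WT pools for 8 of the 9 genes (all but *Igkc*), where it was the highest for 34.8% of the genes tested. It exceeded the mean of the other WT pools 8.82-fold for *Jchain*, 4.17-fold for *Pax5*, 3.25-fold for *Cd79a*, 2.36-fold for *Ighm*, 1.75-fold for *Cd79b*, 1.64-fold for *Ighd* and 1.44-fold for *Igha*. Outside the set, *Ms4a1* (CD20, a B cell surface protein) had 33 counts there against 6 and 4 in WT pools 6 and 13, and 0 and 5 in *Rag1*-/- pools 2 and 7. The whole list of 8 B cell markers summed to 21.6 to 34.2 CPM in WT and 15.4 to 36.4 CPM in *Rag1*-/-, most of it from *Ebf1*, and 0 of its 5 tested genes were called (0 with an unadjusted p-value under 0.05, edgeR). The part of B cells in the values of the 9 genes was not tested, and in bulk samples fewer cells of a type and less RNA per cell cannot be told apart.

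Set against *Ptprc*, the gene of the CD45 used in the gate, *Ighm* had 164, 22.6 and 21.7 counts per 1000 *Ptprc* counts in WT pools 5, 6 and 13 and 18.8 and 16.8 in *Rag1*-/- pools 2 and 7, a ratio chosen after the values were seen. On this scale the *Rag1*-/- libraries were below all WT libraries, close to WT pools 6 and 13, and WT pool 5 stood alone. *Pax5* had 19.7, 0.783 and 2.40 in WT and 0 and 0.0825 in *Rag1*-/- on the same scale, and *Cd79b* had 5.71, 1.02 and 1.07 against 3.27 and 1.20. With the libraries scaled on the list of leukocyte genes, 4 of the 7 genes were called lower, *Ighm* (-1.93, adjusted p = 0.0204), *Jchain* (-4.53), *Cd79a* (-3.82) and *Pax5* (-7.02), where 66.4% of all genes tested were called lower (edgeR). Without WT pool 5 that scale left *Pax5* alone (-5.09, adjusted p = 0.00911), where 65.3% of genes were called lower, and *Ighm* had -0.64 (adjusted p = 0.189). The direction of *Ighm* thus turned with the scale, and its call on the leukocyte scale rested on WT pool 5.

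**Figure D4:**
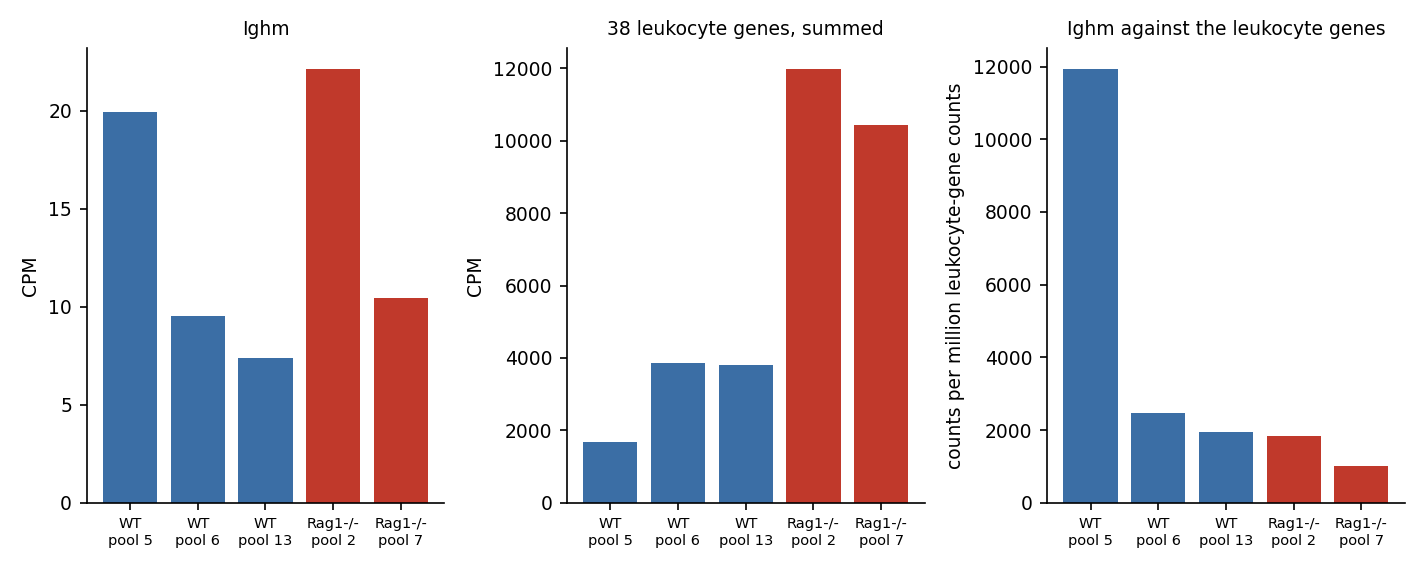
*Ighm* in CPM (left), the summed CPM of 38 leukocyte genes (middle) and *Ighm* counts per 1e6 counts of those genes (right), with 1 bar per library, WT blue and *Rag1*-/- red. *Rag1*-/- pool 2 is the highest in *Ighm* CPM at 22.1, whereas against the leukocyte genes WT pool 5 is the highest at 11920 and the other 4 libraries lie between 1003 and 2465.

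Other genes of the B lineage were taken from 6 lists, 59 genes in all with 37 tested, of which 7 were called (5 higher and 2 lower in *Rag1*-/-) and 17 had an unadjusted p-value under 0.05. Over all genes tested 5.73% were called (3.57% higher and 2.16% lower) and 26.4% had such a p-value. Without any 1 of the WT pools, or without *Rag1*-/- pool 2, none of them was called (13 to 18 with an unadjusted p-value under 0.05, edgeR), as was the case for all genes tested. Of the B cell surface list, 8 of 13 genes were tested, with a median log2 fold change of -0.32, and only the tetraspanin *Cd37* rose (2.40, SE 0.35, adjusted p = 0.0306). The most abundant genes of that list by CPM, *Cd81* (0.73, adjusted p = 0.058) and *Cd72* (1.67, adjusted p = 0.0814), did not pass. Of 8 transcription factors, all tested with a median of 0.60, the octamer coactivator *Pou2af1* rose and *Bcl11a*, needed for early B cell development, fell. *Pou2af1* had 2.32, 7.02 and 7.38 CPM in WT pools 5, 6 and 13 and 20.7 and 29.8 CPM in *Rag1*-/- pools 2 and 7 (2.22, SE 0.49, adjusted p = 0.0457). *Bcl11a* had 22.7, 22.2 and 18.7 CPM against 3.85 and 7.89 CPM (-1.77, SE 0.36, adjusted p = 0.0376). The genotypes did not overlap in either gene. The factors *Foxo1* (0.82, adjusted p = 0.0618) and *Bach2* (1.68, adjusted p = 0.0633) did not pass, nor did *Ebf1* (-0.11, adjusted p = 0.897), which acts with *Pax5* in the B lineage and was added to the named genes after its values were seen.

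Of 14 signalling genes downstream of the receptor, 13 were tested with a median of 0.64, and the lipid phosphatase *Inpp5d* (1.74, adjusted p = 0.0329, and -0.18 on the leukocyte scale) was among those that rose. *Lyn*, a kinase that phosphorylates the receptor chains, did not pass (1.77, adjusted p = 0.0612). Of 10 plasma cell genes, 8 were tested with a median of 0.36, and *Irf4*, a factor also used in activated lymphocytes, rose (1.56, adjusted p = 0.0363, and -0.46 on the leukocyte scale) while *Prdm1*, which drives secretion and also acts in the epidermis, fell (-1.23, adjusted p = 0.0481). *Sdc1* (-0.66, adjusted p = 0.273) and *Xbp1* (0.46, adjusted p = 0.203), the most abundant by CPM, did not pass. None of the 6 genes of the pre-B cell receptor and recombination list was tested, the most abundant being *Dntt*, with 10 counts in WT pool 13 and none elsewhere, and *Vpreb3*, with 3 counts in WT pool 6 and 4 in *Rag1*-/- pool 7. On the leukocyte scale *Bcl11a* (-3.88) and *Prdm1* (-3.38) were called lower, as were 66.4% of all genes tested. The median gene was shifted by -2.06 on that scale, so these calls add no separate support. *Cd37* and *Pou2af1* had 0.47 and 0.42 there and were no longer called, nor were *Inpp5d* and *Irf4*. Like the last pair, *Cd81*, *Cd72*, *Foxo1*, *Bach2*, *Lyn* and *Xbp1* turned negative. Several of these genes are also expressed by other cells of the skin. The sums of some lists of other cell types differed between genotypes. Keratinocyte markers summed to 28130 to 39610 CPM in WT and 7149 to 16240 CPM in *Rag1*-/-, with 5 of 12 called lower. T cell markers summed to 59.2 to 137 against 423 to 466 CPM, with 4 of 10 tested genes called higher. Those were *Cd3g*, *Trac*, *Trbc2* and *Lat*, named after their values were seen. Of the 10, 9 had positive fold changes. *Cd3e* (0.32), *Cd3d* (0.38) and *Cd5* (-1.48) were not called. Of the 12 T cell markers, 8 were lowest and 3 highest among the WT pools in pool 5. Markers of plasmacytoid dendritic cells, which also express *Bcl11a*, summed to 163 to 194 CPM in WT and 169 to 248 CPM in *Rag1*-/-. Of 7 tested, 2 were called higher, *Bst2* and *Il3ra*, and 4 had positive fold changes. *Ccr9* (-1.695), *Siglech* (-1.32) and *Tcf4* (-0.76) were negative and not called. These genes too were named after their values were seen. Of 11 myeloid markers 0 were called (275 to 448 against 162 to 487 CPM, 0 with an unadjusted p-value under 0.05, edgeR). Plasma cell genes summed to 708 to 808 against 588 to 780 CPM. The part of these cell types in the values of the B lineage genes was not tested.

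**Figure D5:**
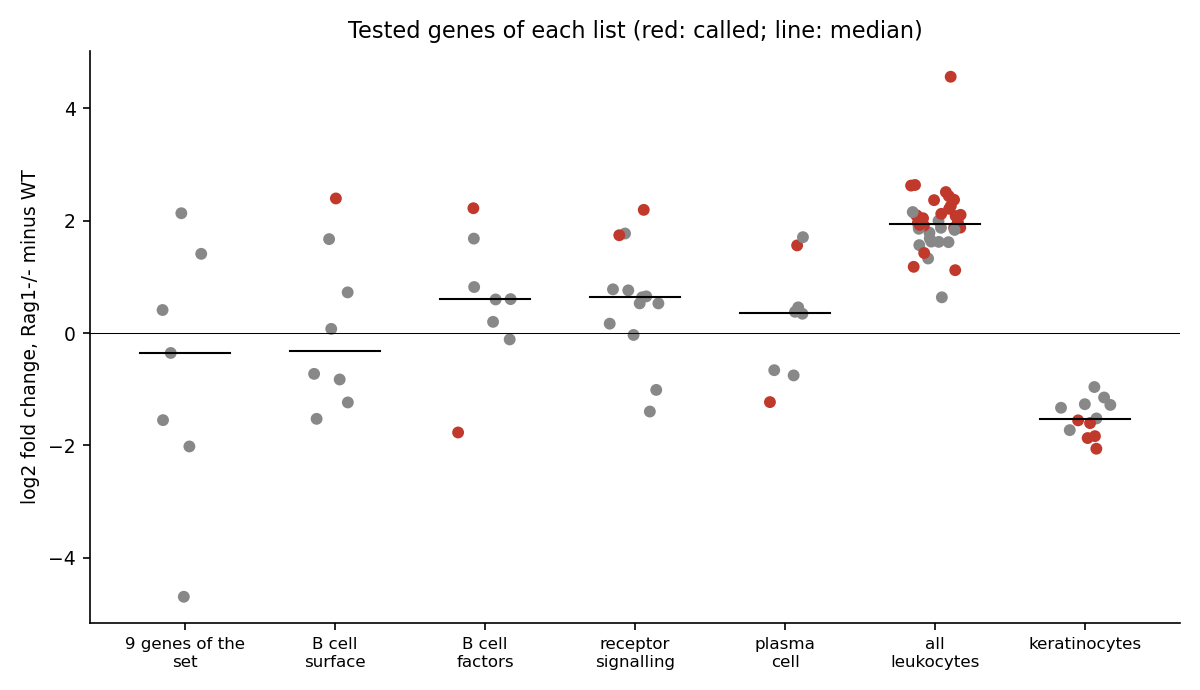
Log2 fold change (*Rag1*-/- minus WT, edgeR) of each tested gene of 7 lists, called genes in red and the median as a line, with sideways scatter for legibility only. The 7 tested of the 9 genes spread from -4.69 to 2.14 around a median of -0.35 with none called, while the leukocyte genes have a median of 1.95 and keratinocyte markers one of -1.54, and on the leukocyte scale with all libraries many positive values turn negative, those of *Ighm*, *Igha*, *Cd79b*, *Inpp5d* and *Irf4* among them.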

How the data were processed

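RNA of dILC2s was measured by single-end sequencing of 50 bases in 5 libraries. Reads were mapped by the authors to GRCm38 with STAR 2.5 and assigned to genes with featureCounts 1.5.0-p1, from a kit that does not mark strand, and the raw counts per gene were deposited. The paper and the deposited text name different releases of the annotation, and the labels list GRCm39 as well. The deposited normalized values were not used, and neither was the deposited column of other values, a transcript length in bases. The labels give 16 *Rag1*-/- mice and the methods 18.

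Libraries were grouped by label, and none was left out. The difference between genotypes was fitted in R 4.3.3 with edgeR 4.0.16, using filterByExpr, TMM scaling and the quasi-likelihood test, with p-values adjusted by Benjamini-Hochberg over 19011 genes. A call required an adjusted p-value below 0.05 and a log2 fold change beyond 1 in either direction. The SE was the log2 fold change divided by the square root of F. CPM were scaled to the library total, and levels per kb used the exon union of GENCODE M21, in which 47224 of 47729 genes were found. The script was tested on simulated data. Ratios of pooled counts carry exact conditional binomial intervals, which leave out the spread between pools.

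The genes and lists were chosen with earlier results of these data known. Genes named are the 9 genes, other immunoglobulin constant genes with at least 10 counts, the called and the 2 most abundant genes of each B lineage list, the 3 genes with the most similar profile to each gene tested, *Rag1*, and those said to be singled out after their values were seen, among them *Ms4a1* from the marker lists. Some genes of the lists are counted but not reported here by name. *Cd37* occurs in 2 entries of the table, and the entry with the higher total was used. Alternatives were DESeq2 1.42.0, RLE scaling, library size alone, scaling on leukocyte genes, no filter, a minimum of 10 counts per library, no limit on the fold change, thinning to the shallowest library, and each library left out. Leukocyte scaling and no filter, each without WT pool 5, were added after the data were seen.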

Additional observations from a re-analysis of the deposited data

How the results depend on the processing

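Of the 9 genes, 0 were called, against 1 with DESeq2 (*Pax5*), 1 without the filter (*Pax5*), 4 on the leukocyte scale, 0 to 1 with a library left out (*Cd79b* without *Rag1*-/- pool 7), 1 on the leukocyte scale without WT pool 5 (*Pax5*) and 1 without the filter and WT pool 5 (*Cd79b*, 2.33, adjusted p = 0.0213). Of the B lineage list genes, 7 were called, against 11 with DESeq2, 11 without the filter, 18 on the leukocyte scale (all lower) and 0 to 9 with a library left out. Over all genes 1090 were called (679 higher, 411 lower), against 2459 with DESeq2 (1203 and 1256), 2645 without the filter (1157 and 1488), 12642 on the leukocyte scale (16 and 12626) and 0 to 2409 with a library left out, where 3521 to 6188 had an unadjusted p-value under 0.05. Signs turned for *Ighm* (-1.93 on the leukocyte scale, -0.64 on it without WT pool 5, -0.16 to 0.94 with a library left out, lowest without *Rag1*-/- pool 2), *Ighd* (-1.50 to 0.024, highest without *Rag1*-/- pool 2), *Igha* (-0.76) and *Cd79b* (-0.080), the last 2 on the leukocyte scale but not on it without WT pool 5 (0.016 and 0.84), and the cause was not tested. Thinning to the shallowest library moved the summed variable segments from 12.7 to 11.3 CPM in WT pool 5 and from 0.257 to 0.497 CPM in *Rag1*-/- pool 7. Of the other alternative values of the 7 genes tested (*Igkc* and *Iglc1* were not compared), 74 kept their direction and their side of the threshold and 8 kept the direction and passed. Most of the 9 genes had under 100 counts in each library, which limits all of these values, and fold changes of genes at the floor in *Rag1*-/- are not bounded above. No paired analysis was possible because the groups share no replicate numbers.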

Other observations

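The genes tested whose profile over the 5 libraries was most like that of each gene were found by the root mean square difference of centred log2 CPM, and with 5 libraries many genes come close to any profile. For *Ighm* they were *Hand2* (0.109), *Gm43759* (0.112) and *2210008F06Rik* (0.127), for *Ighd* *Nrarp* (0.0705), *Gm37292* (0.106) and *Gamt* (0.109), and for *Igha* *Zfp575* (0.114), *Gm44349* (0.127) and *Emx2os* (0.155). For *Jchain* they were *Gm12267* (0.172), *Gm5835* (0.181) and *Gm14156* (0.195), for *Cd79a* *Hspd1-ps3* (0.200), *Mroh3* (0.203) and *RP23-49I18.5* (0.204), for *Cd79b* *Gm36266* (0.165), *Lrrc15* (0.218) and *Shcbp1l* (0.231), and for *Pax5* *Gm13132* (0.166), *Actbl2* (0.201) and *Gm17967* (0.270). No gene of the set was among the 3 nearest of another.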
